A study of Mus musculus with 48 samples.

Results

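Astrocytes of the mouse cortex were compared at postnatal day 7 (P7) and postnatal day 1 (P1) by bulk RNA-seq, which measures the summed RNA of many cells in one library. The comparison rests on 6 of the 48 samples of the series, taken by their tissue, cell type and age labels: 3 cortex libraries at P1 and 3 at P7. The labels describe the developmental samples only as astrocytes of one of 3 brain regions at P1, P7 or P14. They give no genotype, strain or treatment for them, and do not say how the cells were purified after dissociation or whether each library came from a separate animal. P values therefore measure the spread between these libraries, which may in part be technical. The 4 cortex libraries at P14 shared the model, so that all 10 cortex libraries set the estimate of spread, and 3 libraries per age from hippocampus and from olfactory bulb served for comparison.

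Astrocytes are the glial cells that surround synapses and blood vessels. They take up glutamate and potassium released by neurons, couple to each other through gap junctions, supply lipids and metabolites, and secrete proteins that act on synapse formation. In the rodent cortex they derive from radial glia, the stem cells of the embryonic cortical wall. During the first postnatal weeks they divide locally, extend fine processes and acquire channels, transporters and receptors. Radial glia also give rise to cortical neurons and to oligodendrocyte precursors, whose RNA could be present in an astrocyte preparation.

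The deposited value of a gene is its read count divided by 1 scaling factor per library, called its normalized value here. Reads assigned to genes numbered 14070691 to 14513455 in the P1 libraries and 4828515 to 7850503 in the P7 libraries. The ribosomal RNA precursor Rn45s took 19.4% to 26.7% of reads at P1 and 13.7% to 18.01% at P7. Replicates correlated across genes with Pearson's r of 0.952 to 0.982 at P1 and 0.954 to 0.978 at P7. The label was checked here only on the general astrocyte genes Slc1a3 and Aldh1l1. Slc1a3, the glutamate transporter GLAST, had values of 4282, 5549 and 5579.6 at P1 and 14736, 16418 and 15476 at P7. It is also in the list of radial glia genes used below, so it does not tell astrocytes from radial glia. Aldh1l1, a folate enzyme widely used as an astrocyte marker, had 703, 745 and 774 at P1 and 885, 895 and 813 at P7. Depth differed between the ages: with every library thinned to 3999574 reads without Rn45s and scaled with TMM, 3613 genes were called between P7 and P1, a setting chosen after seeing the data. P1 replicate 1 stood apart in its markers of other cells, with summed endothelial markers of 98.9 against 528 and 769 in the other P1 libraries and summed mural and fibroblast markers of 111 against 912 and 1037. P7 replicate 2 had the highest summed microglial markers, 3032 against 1003 and 958 in the other P7 libraries, and the lowest sums of general and of excitatory neuron markers. The replicates numbered 3 had the highest sums of the 12 listed ependymal and choroid plexus markers, of which 3 were tested, at each age. These sums were 1151 against 38.1 and 95.7 at P1 and 2539 against 319 and 138 at P7.

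The first question was which genes moved between the 2 ages. Of 11822 genes tested, 1850 were higher and 2135 lower at P7, which is 33.7% called in either direction, 15.6% higher and 18.1% lower (limma, Benjamini-Hochberg adjusted p under 0.05). The median tested gene lay at -0.10 on the log2 scale with the deposited scaling and at -0.01 with TMM scaling, which trims extreme genes before it equates libraries. With TMM scaling 2165 genes were higher and 1668 lower (18.3% and 14.1%, together 32.4%). All differences below are P7 minus P1 on the log2(normalized value + 1) scale, which understates the change of genes with low values, and all adjusted p values without another name are from limma with Benjamini-Hochberg adjustment. For 53.5% of the tested genes the P1 and P7 libraries did not overlap.

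Among the genes with the largest rises, Gpr37l1 encodes an orphan receptor of astrocytes. Its normalized values were 46.6, 39.0 and 41.6 at P1 and 778, 836 and 586 at P7. The difference was 4.07 (SE 0.13, adjusted p 5.21e-10), and no P7 library came near a P1 library. Slc39a12, a zinc transporter, went from 30.7, 35.8 and 43.1 to 548, 701 and 627 (4.07, SE 0.14, adjusted p 7.07e-10). Hapln1, which links hyaluronan to proteoglycans of the extracellular matrix, went from 149.7, 129 and 143 to 1428, 1720.3 and 1583. Its difference of 3.48 had the smallest error of this group (SE 0.09, adjusted p 9.13e-11). Gjb6, the gap junction protein connexin 30, had 1.42, 11.8 and 15.7 at P1 and 153, 114 and 86.6 at P7 (3.85, SE 0.51, adjusted p 7.54e-05). P1 replicate 1 was far below the other P1 libraries for Gjb6, as it was for Cd38, an enzyme that consumes NAD (3.41 against 29.0 and 23.6, with 241, 242 and 203 at P7). S100b, a calcium-binding protein of astrocytes, went from 22.2, 19.9 and 16.2 to 253, 264 and 252, so that the P7 libraries lay within a narrow band.

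Other genes among the 15 largest rises were Atp13a4 (difference 3.77), a P-type ATPase, Il33 (3.64), an interleukin that astrocytes release, Igsf1 (3.39), Ntsr2 (3.28), a neurotensin receptor, Slc14a1 (3.20), a urea transporter, Hsd11b1 (3.16), which activates glucocorticoids, and Efhd1 (3.14), a mitochondrial calcium-binding protein. Smyd1 and Grin2c started from very low values. Smyd1, a methyltransferase best known from muscle, had 2.56, 1.01 and 1.28 at P1 and 29.4, 28.6 and 30.4 at P7 (3.59, SE 0.26, adjusted p 3.52e-07). Grin2c, an NMDA receptor subunit, had 2.84, 2.77 and 2.05 at P1 and 36.9, 41.0 and 39.0 at P7 (3.50, SE 0.19, adjusted p 4.64e-08), and went on to 579.6 to 728 at P14.

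**Figure D1:**
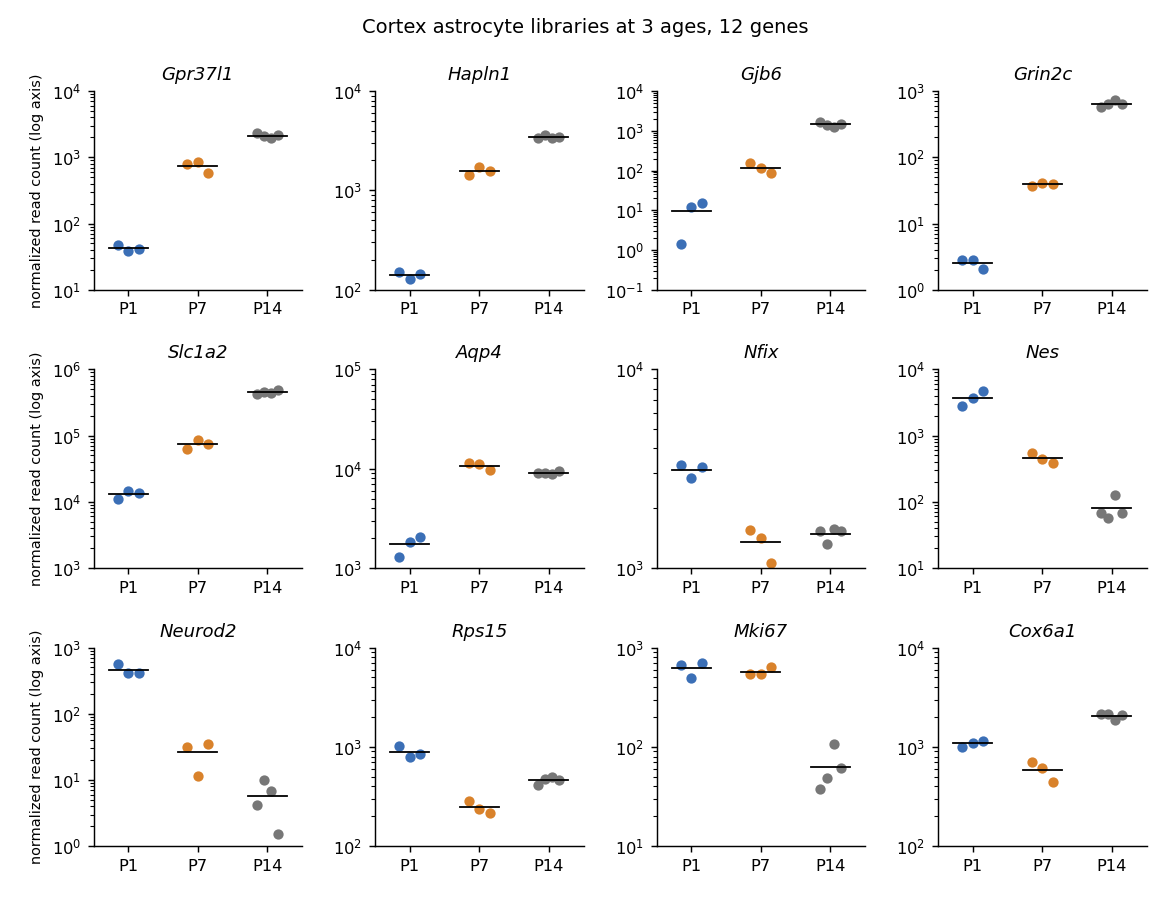
Normalized read counts (vertical, log axis, a different range in each panel) of 12 genes in each cortex library at P1 (3 libraries), P7 (3) and P14 (4), with a horizontal line at each group's mean. Gpr37l1, Hapln1, Gjb6, Grin2c, Slc1a2 and Aqp4 were higher and Nfix, Nes, Neurod2, Rps15 and Cox6a1 lower at P7 than at P1, while the P1 and P7 libraries of Mki67 overlapped.

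The largest falls were led by genes of young neurons and of radial glia. Neurod2, a transcription factor of excitatory neurons, had 559, 413 and 419 at P1 and 31.7, 11.6 and 34.9 at P7 (-4.23, SE 0.50, adjusted p 2.54e-05). Cntn2, an axonal adhesion protein, went from 466, 368 and 382 to 39.8, 20.9 and 42.6 (-3.58, SE 0.51, adjusted p 1.36e-04). The same direction held for Neurod6 (-2.90) and Tbr1 (-2.46), which are transcription factors of cortical projection neurons, and for Myt1l (-2.35), a neuronal transcription factor. P7 replicate 2 was the lowest P7 library for each of these. Nes, the intermediate filament nestin of radial glia, differed in this: it went from 2787, 3698 and 4695 to 537, 445 and 383 (-3.01, SE 0.26, adjusted p 1.52e-06), with P7 replicate 2 in the middle. Other falls of this group were H19 (-2.60), an imprinted noncoding RNA of fetal tissues, Zfp57 (-2.60), which maintains imprints, St8sia2 (-2.56), which adds polysialic acid to adhesion proteins, Islr2 (-2.44), Prr36 (-2.41), Kif26a (-2.41), Neb (-2.40) and Uchl1 (-2.39), a neuronal ubiquitin hydrolase. With a pseudocount of 0.1 the adjusted p of H19 was 0.123 and that of Zfp57 0.143, and without P7 replicate 2 that of Zfp57 was 0.052. In bulk RNA, fewer cells of a type and less RNA per cell cannot be told apart.

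Genes of astrocyte function rose widely. Of 84 tested members of a list of such genes, 68 were higher and 3 lower at P7, and the list median was 1.27 against -0.10 for all tested genes. The 9 members that handle glutamate and GABA were all higher. Slc1a2, the main glutamate transporter of the forebrain, had 10871, 14580.1 and 13572 at P1 and 61611, 84819 and 73362 at P7. This is a mean rise of 5.63-fold (log2 difference 2.49, SE 0.16, adjusted p 1.47e-07). Glul, which converts glutamate to glutamine, rose by 1.40 (SE 0.11), and Slc6a11, the GABA transporter GAT3, by 1.68 (SE 0.08). Slc7a11, a cystine and glutamate exchanger listed under metabolism, went from 252, 367 and 390.3 to 2066, 2551 and 1546 (2.60, SE 0.17, adjusted p 2.39e-07).

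Water and potassium handling genes followed, with 11 of 15 higher and none lower. Aqp4, the water channel of astrocyte endfeet, had 1295, 1847 and 2045 at P1 and 11332, 11125 and 9715 at P7 (2.66, SE 0.14, adjusted p 3.86e-08), and at P14 its libraries stayed at 8809 to 9473. Kcnj10, the potassium channel Kir4.1, rose by 1.85 (SE 0.12) and its partner Kcnj16 by 2.83 (SE 0.19). Atp1b2, a sodium pump subunit, rose by 1.63 and Dag1, which anchors Aqp4 complexes at endfeet, by 1.30. Of 4 gap junction and hemichannel genes 3 were higher: Gjb6 has been given above, and Gja1, connexin 43, went from 249, 397 and 404 to 2106, 2355 and 2258 (2.71, SE 0.15, adjusted p 6.08e-08). Panx1, a pannexin, was lower, at 79.8, 70.0 and 53.6 against 31.2, 25.5 and 30.8 (-1.18, SE 0.30, adjusted p 8.11e-03).

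Among 19 receptors of the list, 15 were higher and none lower. Gabbr1 and Gabbr2 encode the paired subunits of the GABA-B receptor. Gabbr1 went from 1249, 1153 and 1080.2 to 3023, 2704 and 2752 (1.28, SE 0.09, adjusted p 2.59e-07) and Gabbr2 from 361, 386 and 428 to 1288, 1260.3 and 1256 (1.70, SE 0.12, adjusted p 3.44e-07). Gabrg1, an ionotropic GABA receptor subunit, rose by 1.91 (SE 0.12). Ednrb, an endothelin receptor, rose by 1.79 and S1pr1, a sphingosine phosphate receptor, by 2.11. Grm5, the metabotropic glutamate receptor of young astrocytes, had 777, 836 and 748 at P1 and 1806, 1832 and 2019 at P7 (1.26, SE 0.10, adjusted p 7.59e-07). At P14 its libraries were at 303 to 369, below every P1 library.

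Metabolic members were higher in 18 of 24 cases and lower in 2. The metallothioneins Mt1 and Mt2, which bind zinc and copper, were the exceptions. Mt2 had 329, 492 and 509 at P1 and 294, 203 and 169 at P7 (-1.01, SE 0.24, adjusted p 6.22e-03). The fall of Mt1, at 359, 526 and 524 against 389, 326 and 283, did not separate the libraries (-0.49, SE 0.16, adjusted p 0.0323), and with TMM scaling its adjusted p was 0.078. The call of Mt1 was also lost without P1 replicate 2 (adjusted p 0.122), P1 replicate 3 (0.113), P7 replicate 2 (0.076) or P7 replicate 3 (0.113). Both stood far higher at P14, at 2412 to 3171 for Mt1 and 1865 to 3608 for Mt2. Aldoc, the aldolase of astrocytes, had 2931, 3611 and 3627 at P1 and 4070.2, 4259 and 3389 at P7, which did not pass the test (0.20, SE 0.12, adjusted p 0.203). Gfap, the filament of reactive and fibrous astrocytes, was uneven: it had 251, 464 and 845 at P1 and 1273, 1129 and 665 at P7 (1.09, SE 0.33, adjusted p 0.0204). Without P1 replicate 1 the Gfap difference was 0.65 with an adjusted p of 0.074, and the call was also lost without P7 replicate 1 (0.91, adjusted p 0.085) or P7 replicate 2 (0.99, adjusted p 0.065).

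**Figure D2:**
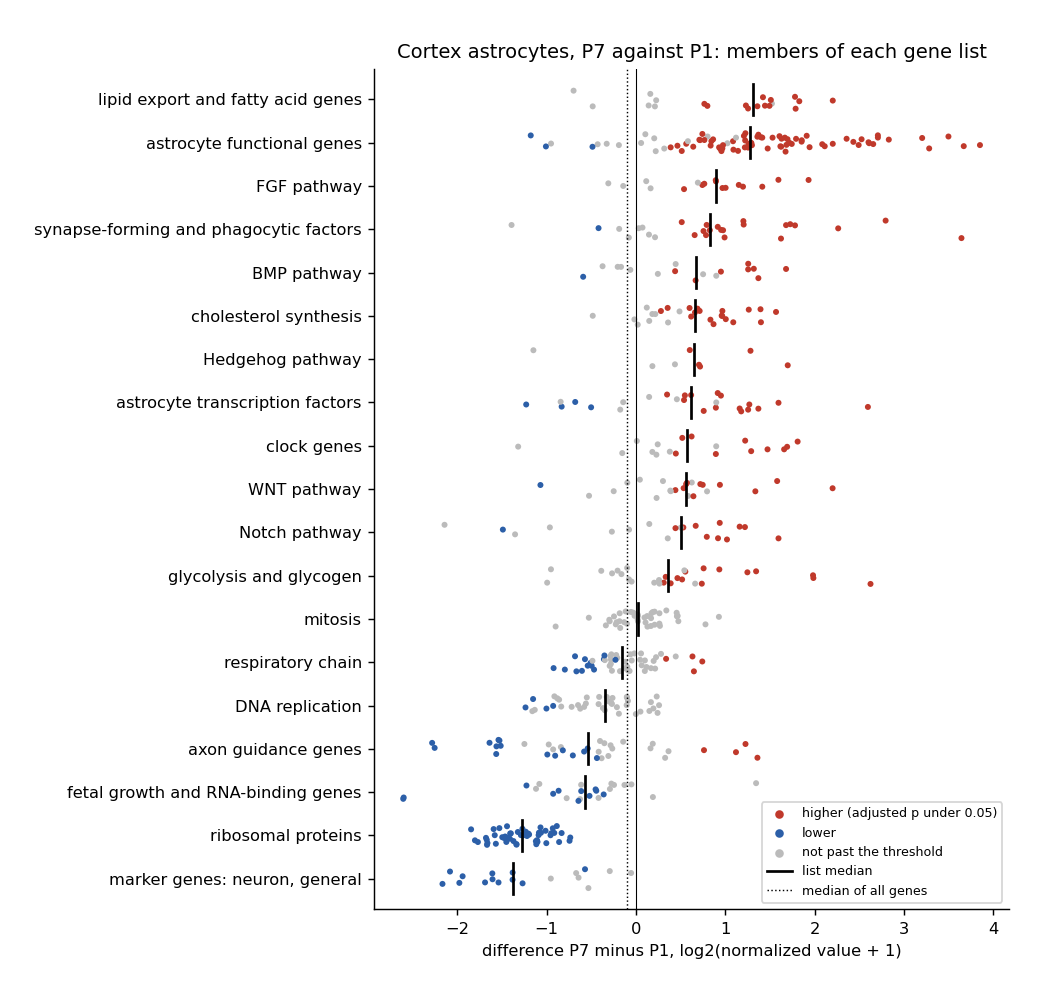
Difference P7 minus P1 (horizontal, log2 of normalized value + 1) of each tested member of 19 gene lists, coloured red where higher, blue where lower and grey where the test was not passed, with black bars at list medians and a dotted line at the median of all tested genes. The median of astrocyte functional genes was 1.27, that of mitosis genes 0.02 and that of ribosomal proteins -1.28.

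Factors that astrocytes release or use to act on synapses were higher in 19 of 27 tested cases and lower in 1. Sparcl1, the synaptogenic matrix protein hevin, had 5025, 10327 and 9768 at P1 and 25322, 25166 and 28872 at P7 (1.73, SE 0.21, adjusted p 3.46e-05). Chrdl1, a secreted BMP antagonist that acts on synapse maturation, went from 271, 276 and 283 to 872, 996 and 807 (1.68, SE 0.12, adjusted p 4.83e-07). The glypicans Gpc4 and Gpc6 rose by 0.95 and 0.76. Of 11 genes for phagocytosis, the engulfment of cell debris and synapses, 9 were higher, among them the receptors Mertk (35.8, 59.2 and 68.5 against 225, 267 and 281, a difference of 2.26) and Megf10 (0.92). Nlgn2, an adhesion protein of inhibitory synapses that astrocytes also make, was the member that fell, by 0.42 (adjusted p 0.0227), and with TMM scaling its adjusted p was 0.069. Its call was also lost without P1 replicate 1 (adjusted p 0.075), P1 replicate 3 (0.053) or P7 replicate 3 (0.089).

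Transcription factors of the astrocyte lineage moved in both directions, with 15 of 25 higher and 4 lower. Dbx2, a homeobox gene, rose most, from 26.1, 55.7 and 57.7 to 264, 267 and 281 (2.60, SE 0.23, adjusted p 1.80e-06). Sox9, which directs glial fate, rose by 0.76 (SE 0.11, adjusted p 1.96e-04). Nuclear factor I proteins switch progenitors towards gliogenesis, and their genes differed from each other. Nfix had 3292, 2835 and 3235 at P1 and 1552, 1424 and 1062 at P7 (-1.23, SE 0.13, adjusted p 9.61e-06). Nfib fell by 0.50 (SE 0.10, adjusted p 1.54e-03), whereas Nfia was higher by 0.35 (SE 0.10, adjusted p 0.0199). The call of Nfia was lost without P1 replicate 2 (0.32, adjusted p 0.067) or P7 replicate 2 (0.27, adjusted p 0.094). Zbtb20, a repressor needed for astrocyte formation, fell by 0.68, and Emx2, a cortical patterning factor, by 0.83 with overlapping libraries (228, 458 and 459.6 against 184, 202 and 228).

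Signalling pathways that act on radial glia and astrocytes were counted next. In the Notch pathway, in which a membrane receptor is cut and enters the nucleus, 10 of 19 genes were higher and 1 lower, with a list median of 0.50. The receptors Notch1, Notch2 and Notch3 rose by 0.53, 0.92 and 0.79, Notch2 from 255, 328 and 391 to 539.5, 666 and 615. The call of Notch3 was lost without P1 replicate 3 (adjusted p 0.071), P7 replicate 1 (0.080) or P7 replicate 2 (0.067). Among the targets, Hes5 went from 39.8, 80.3 and 96.7 to 178, 148 and 135 (1.16, SE 0.28, adjusted p 5.99e-03). Hes6, which opposes Hes1 and promotes neuronal differentiation, went the other way, from 62.5, 61.2 and 52.6 to 20.2, 23.2 and 17.7 (-1.49, SE 0.29, adjusted p 1.38e-03). Hes1 itself rose by 1.60 (adjusted p 0.0176), but without P1 replicate 1, which had 6.25 against 19.4 and 30.5, the difference was 0.99 with an adjusted p of 0.067, and without P7 replicate 1 it was 1.52 with an adjusted p of 0.060.

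The FGF pathway acts through receptor tyrosine kinases and had 12 of 17 genes higher and none lower, with a median of 0.89. All 4 receptors rose, Fgfr3 from 277, 394 and 375 to 881, 977 and 905 (1.41, SE 0.13, adjusted p 2.65e-06). Of the ligands Fgf1 rose by 1.93 (SE 0.19). The feedback inhibitors Spry2, Spry4 and Il17rd, which are induced by the pathway, rose by 1.15, 0.97 and 1.59. In the BMP pathway 8 of 17 genes were higher and 1 lower: the receptor Bmpr1b rose by 1.26, the targets Id2 and Id3, inhibitors of bHLH factors, by 1.26 and 1.37, and the signal carrier Smad1 fell by 0.59. The WNT list had 11 of 23 higher and 1 lower, with the ligand Wnt7a up by 1.34 and the secreted inhibitor Sfrp2 down by 1.07. Of 8 Hedgehog genes 5 were higher, among them the receptor Ptch1, which the pathway itself induces (184, 187 and 186 against 627, 658 and 536, a difference of 1.70, SE 0.11), and Hhip, a binding inhibitor, at 1.28. Of 20 thyroid and steroid hormone genes 6 were higher and 2 lower: the glucocorticoid receptor Nr3c1 rose by 1.61, the thyroid hormone transporter Slco1c1 by 1.73 and the receptor Thrb by 1.30, while the other thyroid hormone receptor, Thra, fell by 0.73. With TMM scaling, and without P1 replicate 1, 2 or 3 or P7 replicate 2, 1 hormone gene was lower. Of 18 clock genes, which run the daily rhythm, 10 were higher and none lower, led by Bhlhe41 (1.81), Per3 (1.69) and Hlf (1.66). The labels give no time of day for the samples.

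Lipid genes formed another group that rose. Of 27 tested genes of cholesterol synthesis and its control, 18 were higher and none lower, with a median of 0.66. Brain cholesterol is made locally, and astrocytes export it on particles that carry apolipoprotein E. The transcription factor SREBP-2 switches on most of these enzymes through sterol elements, and a CCAAT box, bound by NF-Y, is often near them. Because the genes moved together, the stretches of 4 of their promoters that hold these letters are shown, with coordinates in mm10 and sequence from RefSeq (GRCm38.p6). They run 5′ to 3′ on the strand of the gene, with the CCAAT box (on either strand, so also ATTGG) and the letters TCACNCCAC in capitals.
Hmgcs1 (chr13:119690104-119690320, plus strand): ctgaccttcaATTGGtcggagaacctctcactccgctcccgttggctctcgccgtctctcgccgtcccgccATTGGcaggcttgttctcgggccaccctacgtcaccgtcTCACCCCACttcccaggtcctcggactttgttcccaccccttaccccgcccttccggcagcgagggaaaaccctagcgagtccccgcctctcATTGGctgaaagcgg
Idi1 (chr13:8885551-8885605, plus strand): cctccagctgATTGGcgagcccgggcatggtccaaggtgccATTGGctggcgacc
Cyp51 (chr5:4104712-4104736, minus strand): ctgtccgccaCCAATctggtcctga
Msmo1 (chr8:64733619-64733748, minus strand): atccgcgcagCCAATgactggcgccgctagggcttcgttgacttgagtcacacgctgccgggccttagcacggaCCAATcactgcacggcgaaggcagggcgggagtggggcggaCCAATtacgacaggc
Of the 20 tested cholesterol genes matched to the promoter table, 18 held CCAAT on either strand in the 250 bases before the start (90%), against 37.5% of all 27025 genes in that table. TCACNCCAC was found in 1 of the 20 (5%), the Hmgcs1 promoter, against 1.22% of all genes. These matches describe the letters of the windows and do not show binding.

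The 4 genes were higher at P7 in each library. Hmgcs1, which makes HMG-CoA at the entry of the pathway, had 3006, 3128 and 3433 at P1 and 5138, 6567 and 7127 at P7 (0.97, SE 0.11, adjusted p 2.57e-05). Idi1, which isomerizes isopentenyl diphosphate, rose by 0.87 (SE 0.14). Cyp51 removes a methyl group from lanosterol, and went from 653, 591 and 592 to 1064, 1566 and 1898 (1.26, SE 0.17, adjusted p 6.79e-05). Msmo1, a sterol oxidase, went from 181, 195 and 171 to 469.7, 536 and 628 (1.57, SE 0.11, adjusted p 3.12e-07). Later steps of the pathway rose with them, Nsdhl by 1.39 and Dhcr7, the last step, by 1.40. Srebf2, which encodes SREBP-2, had 373, 336 and 337 at P1 and 424, 506 and 412 at P7 (0.36, SE 0.11, adjusted p 0.019), and the call was lost without P1 replicate 2 (adjusted p 0.066), P1 replicate 3 (0.059) or P7 replicate 2 (0.101).

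Genes of lipid export and fatty acid synthesis were higher in 13 of 20 cases and lower in none, with a median of 1.31. Apoe, the main lipid carrier of the brain, had 2507, 2358 and 2205 at P1 and 6309.6, 7047 and 4955 at P7 (1.36, SE 0.12, adjusted p 2.62e-06). Clu, another apolipoprotein, rose by 2.20 and Abca1, which loads cholesterol onto these particles, by 1.78. Scd2, which makes monounsaturated fatty acids, went from 4963, 4402 and 4456 to 15783, 18774 and 14714 (1.83, SE 0.10, adjusted p 6.67e-08), and the elongase Elovl5 rose by 1.79. Energy metabolism moved less: 6 of 19 glycolysis genes were higher and none lower, with a median of 0.20. Glycogen genes were higher in 8 of 9 cases, among them Ppp1r3d, which targets a phosphatase to glycogen (7.10, 6.30 and 12.1 against 54.8, 54.9 and 57.1, a difference of 2.63), and Pygm, glycogen phosphorylase, at 1.34. Glycogen in the brain is stored in astrocytes. For both groups together 14 of 28 genes were higher, and 9 without P7 replicate 2.

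Ribosomal protein genes fell as a group. Of 52 listed genes 50 passed the minimum value, and all 50 were lower at P7, 25 of 25 for each ribosomal subunit, with a median of -1.28 and a range of -1.84 to -0.73. Their summed normalized value was 65231 to 73528 in the P1 libraries and 27007 to 32533 in the P7 libraries. With TMM, median-ratio and quantile scaling, edgeR and DESeq2 the count was also 50 lower. Many ribosomal protein genes have processed pseudogenes in the genome, and how reads that match several copies were counted is not given in the sources used here, so single values are uncertain. Rpl26 was listed at 0 in every library and Rps27 at under 1, and they are left out.

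Messenger RNAs of ribosomal proteins usually begin with a run of pyrimidines, the TOP motif, through which growth signals control their translation. The start sites of the 8 tested genes with the longest such runs are shown (ties were taken in alphabetical order), from 30 bases before the RefSeq start to the 15th base of the transcript, with the run of C and T that covers the start base in capitals.
Rpl35 (chr2:39005117-39005161, minus strand): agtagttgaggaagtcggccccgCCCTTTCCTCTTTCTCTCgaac
Rpl15 (chr14:18270972-18271016, minus strand): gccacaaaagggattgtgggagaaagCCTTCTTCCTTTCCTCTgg
Fau (chr19:6057917-6057961, plus strand): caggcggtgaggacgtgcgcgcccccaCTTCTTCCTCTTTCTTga
Rpl14 (chr9:120571487-120571531, plus strand): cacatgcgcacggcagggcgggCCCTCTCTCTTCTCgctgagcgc
Rps10 (chr17:27635230-27635274, minus strand): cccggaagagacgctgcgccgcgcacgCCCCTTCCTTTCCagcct
Rpl28 (chr7:4792935-4792979, plus strand): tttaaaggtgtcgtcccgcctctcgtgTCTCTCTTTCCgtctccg
Rps18 (chr17:33955651-33955695, minus strand): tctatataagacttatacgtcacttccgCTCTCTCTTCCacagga
Rpl38 (chr11:114668550-114668594, plus strand): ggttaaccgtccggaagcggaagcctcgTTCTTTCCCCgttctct
A run of at least 6 pyrimidines over the start base was present in 13 of the 39 ribosomal protein genes matched to the table (33.3%), against 8.48% of all genes. Annotated starts can lie a few bases from the used start, which decides whether a run covers the start base.

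Rps15, a small subunit protein, showed the lowest difference of the group, with 1023, 800.2 and 845 at P1 and 283, 239.7 and 218 at P7 (-1.84, SE 0.12, adjusted p 2.39e-07). Rpl35 of the large subunit went from 700.3, 548 and 579.9 to 192, 196 and 183 (-1.67, SE 0.11, adjusted p 2.39e-07), and Fau, the precursor of Rps30, from 463, 363 and 375 to 146, 131 and 103 (-1.66, SE 0.15, adjusted p 2.34e-06). Rpl15, whose start site is shown above, fell by 0.91. Among the least lowered was Rpl5 (2687, 2479 and 2566 against 1513, 1658 and 1452, a fall of 0.74). Some other genes whose transcripts are known to carry the TOP motif were picked after their values were seen. Of these, Eef1a1, the elongation factor that brings tRNA to the ribosome, fell by 1.03. Tpt1 fell by 0.76 and Gas5, a noncoding host gene of small nucleolar RNAs, by 1.42. Being picked this way, they do not show how such genes moved as a group, which was not counted. In gene families taken by symbol after these values were seen, against 18.1% of all genes lower and a median of -0.10, 22 of 61 translation factors were lower and 2 higher, 10 of 77 mitochondrial ribosomal proteins were lower and 1 higher (median -0.24), and 8 of 35 proteasome subunits were lower and none higher (median -0.15), so that the mitochondrial and proteasome shares lay near that of all genes. With TMM scaling 6 mitochondrial ribosomal proteins were lower and 3 higher, and with quantile scaling 8 and 5. Of all 93 tested genes whose symbol begins like that of a cytosolic ribosomal protein, 83 were lower, 10 were not called and none was higher. The 10 include S6 kinases, whose symbols begin in the same way and which are not ribosomal proteins.

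Cell division genes gave a different result for the first week. Of 42 mitosis genes none passed the test in either direction, with 2 at an unadjusted p under 0.05 and a median of 0.02. With edgeR the count was also 0, and with DESeq2 2 genes were higher and none lower. Mki67, which marks cycling cells, had 663, 499 and 694 at P1 and 545, 539 and 634 at P7 (-0.10, SE 0.28, adjusted p 0.813). Ccnb1, the cyclin of mitotic entry, had 45.2, 42.1 and 53.6 at P1 and 49.0, 51.8 and 59.8 at P7 (adjusted p 0.852). Of 39 DNA replication genes 4 were lower and none higher, a smaller share than the 18.1% of all genes that were lower, with a median of -0.35. Among the 4 were Ccnd2, a cyclin of the G1 phase (5058, 7252 and 7087 against 2942, 3299.9 and 2445, a difference of -1.15, SE 0.16, adjusted p 1.12e-04), and Dnmt1, which copies DNA methylation to new strands and fell by 0.93. The count of lower DNA replication genes was 2 without P1 replicate 1, 13 with the P1 and P7 libraries alone, and 7 with array weights or a pseudocount of 8. Among the genes with a mean of at least 100 it was 2, with a median of -0.095.

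A list of genes of radial glia and immature cells divided by role. Of 7 genes for filaments, lipid binding and other immature features 6 were lower and none higher. With TMM scaling, median-ratio scaling or edgeR 5 were lower. These 7 include Dcx, Sox11 and Sox4, which are also genes of young neurons. Of 15 matrix and adhesion genes 9 were higher and 1 lower. The filament gene Vim fell by 0.68 (1266, 1694 and 1936 against 1130.4, 1079 and 832, adjusted p 0.0197), and its call was lost without P1 replicate 2 (adjusted p 0.061), P1 replicate 3 (0.081) or P7 replicate 3 (0.075). Sox11 and Sox4, factors of immature neurons and progenitors, fell by 2.13 and 2.29, and Dcx, a microtubule protein of migrating neurons, from 6065, 3670.4 and 4180.1 to 1333, 901 and 1270.3 (-1.98, SE 0.20, adjusted p 6.04e-06). Ptprz1, a phosphatase whose ectodomain is a matrix proteoglycan, rose instead, from 13869, 16583 and 16979 to 42977, 54579.8 and 55358 (1.69, SE 0.13, adjusted p 6.42e-07). In a separate list of integrins and cadherins 10 of 16 genes were higher and 3 lower, and the integrin subunits Itgav, Itgb8 and Itga6 rose by 1.49, 1.64 and 1.44. Of 24 tested genes of fetal growth and chromatin 11 were lower and none higher, among them Dnmt1, H19 and Ezh2, a histone methyltransferase (384, 384 and 322 against 198, 216 and 183, a fall of 0.87). With TMM scaling 7 of the 24 were lower, as they were without P1 replicate 3 or P7 replicate 3, and without P7 replicate 2 the count was 6. Axon guidance genes were lower in 15 of 35 cases and higher in 4: the receptor Epha3 fell by 2.28 and Plxna4 by 1.51, while Sema6d, a membrane semaphorin, went from 1072, 1395 and 1436 to 3207, 3519.5 and 3219.8 (1.36, SE 0.11, adjusted p 6.79e-07).

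Markers of other cells were measured in the same libraries. Of 18 general neuronal markers 12 were lower and none higher at P7, and their summed value was 13844 to 18277 at P1 and 4651 to 9641 at P7, without overlap. With TMM scaling 11 of these markers were lower, and with DESeq2 8. Of 16 excitatory neuron markers 10 were lower and 2 higher, and of 11 inhibitory neuron markers 3 were lower (2 with TMM scaling). Of all tested genes 18.1% were lower and 15.6% higher. Without P7 replicate 2 the general count was 7 and the inhibitory count 1, and without P1 replicate 1 or 2 the inhibitory count was also 1. Tubb3, a neuronal tubulin, had 525, 374 and 329 at P1 and 117, 73.5 and 130.1 at P7, so neuronal RNA was present at both ages. Neurod2, Cntn2, Sox11 and 15 of the 35 axon guidance genes fell over the same interval as the general neuronal sum. Dcx, which also fell, is itself among the summed markers. The part of neuronal RNA in these falls was not tested. Oligodendrocyte precursor markers were higher in 7 of 11 tested cases and lower in 1. Pdgfra was higher by 1.17 and Gpr17 by 1.93. The summed value of all 12 listed was 1471 to 1633 at P1 and 2132 to 2823 at P7. Among 14 tested markers of myelinating oligodendrocytes 9 were higher (all 15 listed summed to 388 to 462 at P1 and 1079 to 1208 at P7). Mog, a surface protein of mature myelin, was the 1 lower member, at 16.2, 18.9 and 8.21 against 1.15, 0.773 and 3.63. Of 11 blood markers 5 were at 0 in all 6 libraries. Microglial markers were higher in 3 of 18 cases, endothelial in 1 of 13, mural in 1 of 10 and ependymal in none of 3. The microglial share lay near the 15.6% of all tested genes that were higher, and the endothelial, mural and ependymal shares lay below it. These small counts moved with single libraries: without P7 replicate 2 the microglial count was 0 and without P1 replicate 1 or 3 it was 1, the endothelial count was 0 without P1 replicate 1 or P7 replicate 1 and 4 without P1 replicate 3, and the mural count was 4 without P1 replicate 2 or 3 and 0 without any other library. The part of these cells in the rises of astrocyte genes was not tested.

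**Figure D3:**
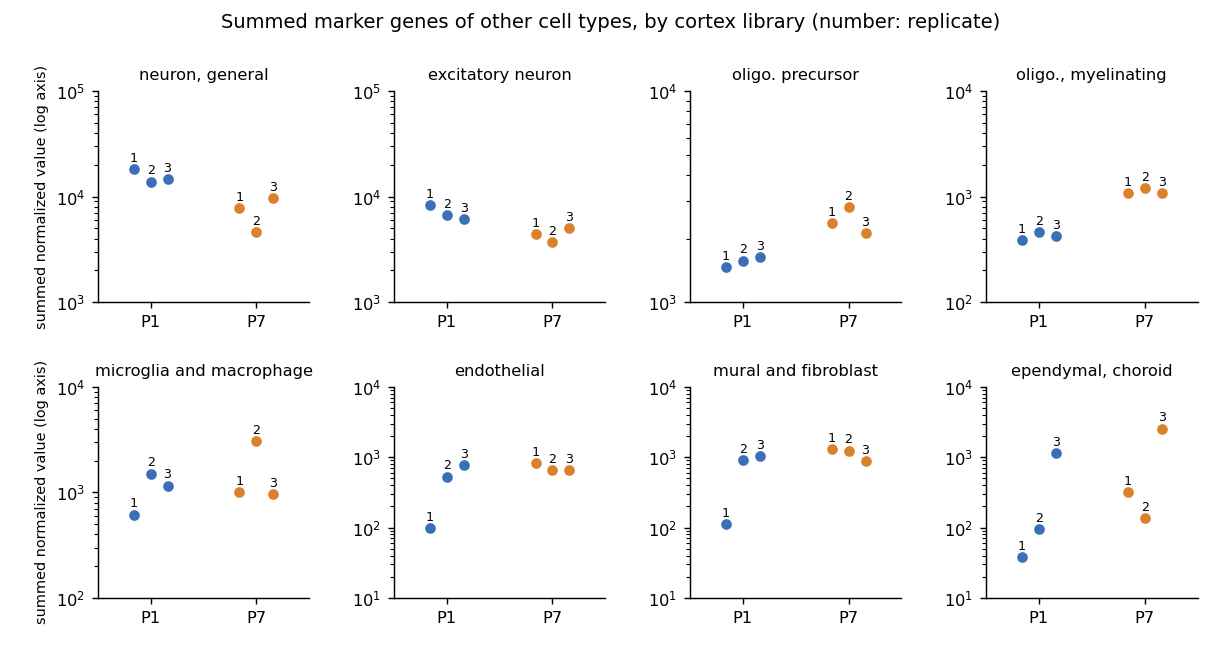
Summed normalized values (vertical, log axis, a different range in each panel) of marker genes of 8 other cell types in each cortex library at P1 and P7, with the replicate number beside each point. Neuronal sums were lower at P7, both oligodendrocyte lineage sums were higher, P1 replicate 1 was lowest for endothelial and mural markers and P7 replicate 2 highest for microglial markers.

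The second week served as a reference for which changes belonged to the first. Both intervals use the P7 libraries, so an error in these moves them in opposite directions. Between P7 and P14, 49.8% of tested genes were called (18.6% higher and 31.3% lower), and the change of the second week differed from that of the first for 2717 genes, or 23% (9.78% with a higher and 13.2% with a lower second-week change). Both balances turned with the scaling. The median tested gene lay at -0.19 between P7 and P14, and with TMM scaling at -0.0045, where 25.7% of genes were higher and 23% lower, and the weeks differed with a higher second-week change for 11.5% and a lower one for 10.7%. Cell division genes moved in the second week: 41 of 42 mitosis genes were lower at P14 than at P7, with a median of -2.34 against 0.02 in the first week, and the weeks differed for 26 (20 lower and 1 higher with TMM scaling). Mki67 went on from its P7 values to 37.5, 49.1, 106 and 61.3 at P14, and the difference between the weeks was -3.16 (adjusted p 4.2e-04). For Ccnb1, with 0.378, 0, 3.15 and 8.31 at P14, it was -4.52 (adjusted p 0.010). Ribosomal protein genes did the reverse: after the first-week fall their second-week median was 0.12 (0.31 with TMM scaling), and the weeks differed for 44 of 50, Rps15 by 2.76 (adjusted p 3.9e-06). Genes of the respiratory chain, which makes ATP in mitochondria, had 4 of 48 higher and 13 lower in the first week (median -0.15). Of all tested genes 18.1% were lower in that week, with a median of -0.10. With TMM scaling 6 respiratory chain genes were higher and 9 lower in the first week (median -0.06). In the second week 45 of 48 were higher (median 1.04), and the weeks differed for 37. Cox6a1, a cytochrome oxidase subunit, had the lowest first-week difference of this list (-0.92). Its values were 1008, 1106 and 1140.0 at P1, 699, 607 and 440.0 at P7 and 1865 to 2169 at P14, with a difference between the weeks of 2.77 (adjusted p 9.0e-06).

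Some genes rose in the first week and not in the second. The difference between the weeks was -2.89 for Aqp4 (adjusted p 6.0e-06), -3.71 for Grm5 (adjusted p 8.6e-08), -3.01 for Abca1 (adjusted p 3.9e-06), -2.08 for Dhcr7 (adjusted p 3.5e-05) and -1.73 for Notch2 (adjusted p 5.4e-04). The 3 receptors Notch1, Notch2 and Notch3 were each lower at P14 than at P7. Aldoc did the opposite, with 17910.2 to 22277 at P14 and a difference between the weeks of 2.17 (adjusted p 1.4e-05). By size, the 3 lowest differences between the weeks were those of Snhg11 (-5.41), a neuronal noncoding RNA, Fos (-4.48), an immediate early gene that responds to activity and handling, and Trank1 (-4.17). In the first week none of these 3 passed the test: Snhg11 was at 0.74 (adjusted p 0.592), Fos at 1.26 (adjusted p 0.108) and Trank1 at -0.73 (adjusted p 0.450). Fos had 91.8, 251 and 338 at P1, 507, 626 and 339.9 at P7 and 19.5 to 144 at P14. The 3 highest differences between the weeks were those of the myelin genes Mobp (7.75) and Mbp (4.51) and of Mt2 (4.63). Mobp was at 0, 0.252 and 0 at P1, 0.577, 3.87 and 0.906 at P7 and 1015 to 1388 at P14, so its first-week difference lies at the level of single reads.

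**Figure D4:**
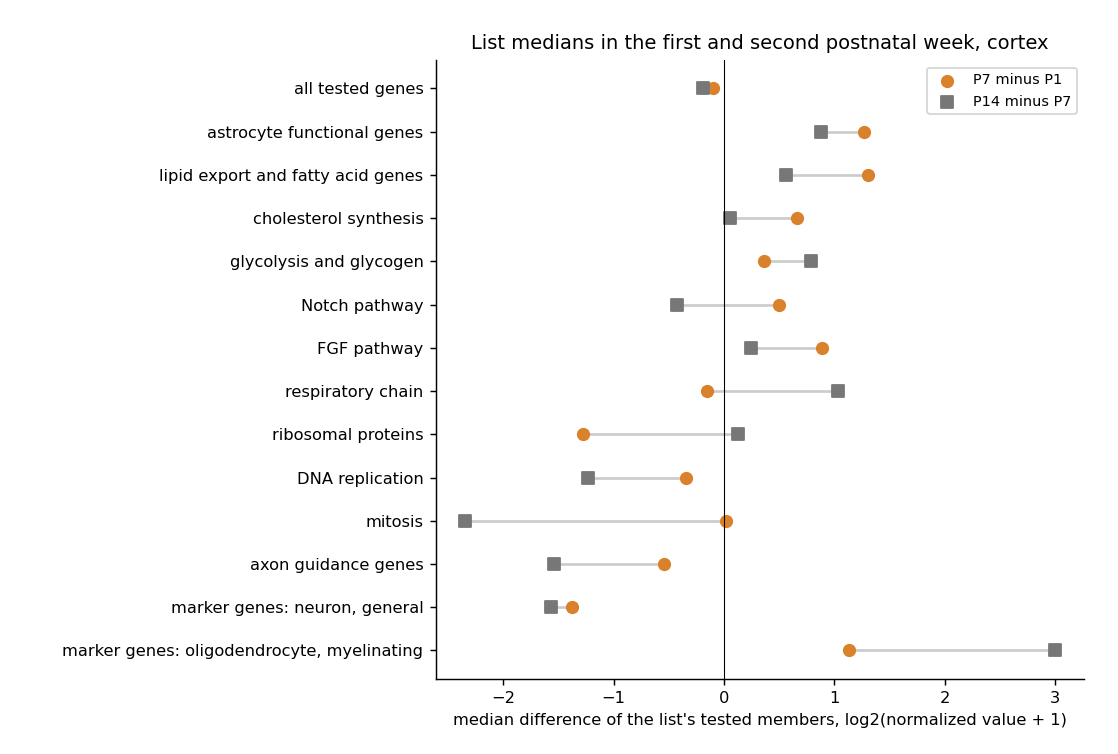
Median difference of the tested members of 13 gene lists and of all tested genes (horizontal, log2 of normalized value + 1) for P7 minus P1 (orange circles) and P14 minus P7 (grey squares). Mitosis genes went from 0.02 to -2.34, respiratory chain genes from -0.15 to 1.04 and ribosomal protein genes from -1.28 to 0.12.

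The same interval in hippocampus and olfactory bulb showed where the cortex differed. These tests used reads recovered from the separate tables of the regions and scaled together with TMM. The change in cortex differed from that in hippocampus for 1764 of 11863 genes, or 14.9% (7.09% higher and 7.78% lower in cortex), and from that in olfactory bulb for 2504, or 21.1% (9.68% and 11.4%). With median-ratio scaling both balances turned, to 7.75% higher and 7.39% lower against hippocampus and 11.5% higher and 10.4% lower against olfactory bulb. Ribosomal protein genes fell further in cortex. Within each region alone, 18.1% of hippocampus genes were called between the ages (11.2% higher and 6.92% lower) and 10.6% of olfactory bulb genes (7.59% and 2.98%). The median ribosomal protein difference was -0.55 in the table of hippocampus and -0.66 in that of olfactory bulb, against -1.28 in cortex. The change was lower in cortex for 29 of 50 against hippocampus and 19 of 50 against olfactory bulb, with none of these 50 higher. For Rps15 the cortex change was lower than that of hippocampus by 1.18 (457, 369 and 417 against 277, 255 and 291 there, adjusted p 6.2e-04) and than that of olfactory bulb by 0.93 (adjusted p 2.3e-03).

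**Figure D5:**
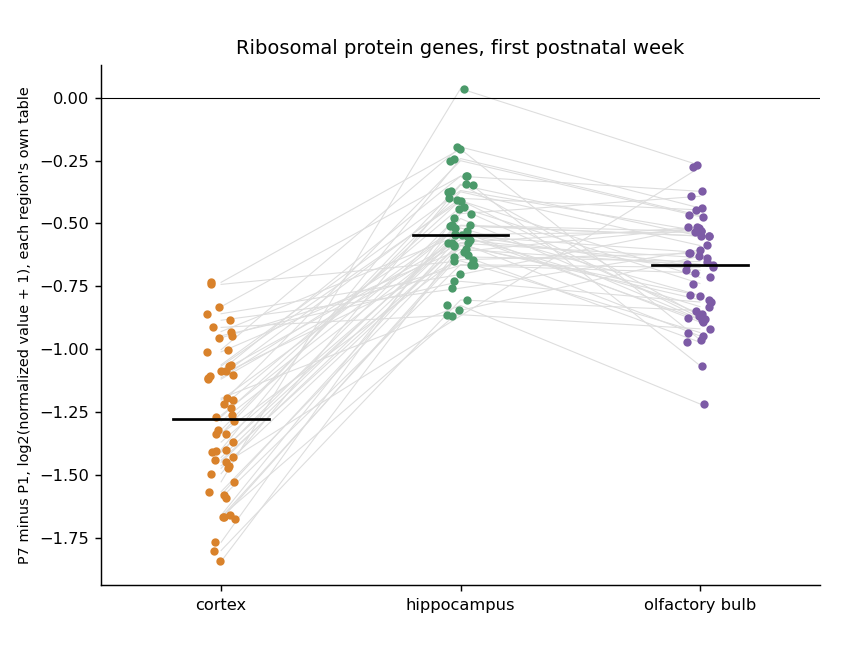
Difference P7 minus P1 (vertical, log2 of normalized value + 1) of 50 ribosomal protein genes in the 3 regions, each taken from a table scaled on its own, with grey lines joining a gene and black bars at the medians. The medians were -1.28, -0.55 and -0.66.

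Gabbr1, which rose by 1.28 in cortex, went from 413, 384 and 396 to 1572, 1625 and 2181 in hippocampus. In olfactory bulb it had 597, 514 and 490 at P1 and 553, 505 and 542 at P7, with overlapping libraries. The cortex change was lower than that of hippocampus by 0.79 (adjusted p 5.3e-03) and higher than that of olfactory bulb by 1.41 (adjusted p 8.5e-05). Nes fell further in cortex than in hippocampus (1467, 1188 and 1267 against 566, 626 and 708 there, a difference in change of -1.89, adjusted p 7.6e-04). In olfactory bulb its libraries overlapped, at 426, 517 and 408 against 265, 395 and 559, and the change in cortex was lower by 2.68 (adjusted p 4.7e-05). The change of Scd2 was higher in cortex than in olfactory bulb by 1.53 (adjusted p 4.8e-04). Cox6a1, which fell in cortex, had 294, 253 and 246 at P1 and 391, 353 and 582 at P7 in hippocampus, and the difference in change was -1.56 (adjusted p 9.7e-04). The change of Aldoc was lower in cortex than in hippocampus by 0.91 (adjusted p 0.026). That call was lost without P1 replicate 2 or 3 or P7 replicate 3, where the difference was -0.87, -0.85 and -0.81.

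By size, the genes whose cortex change exceeded that of hippocampus most were Fam163a (2.51), the netrin receptor Unc5d (2.35) and the RNA-binding protein Mex3b (2.34). Fam163a had 82.6, 147 and 105 at P1 and 129, 113 and 183 at P7 in hippocampus, while in cortex it rose by 2.79. Mex3b was lower at P7 in both regions, by 1.11 in cortex, and in hippocampus it went from 562, 729 and 569 to 87.0, 65.7 and 35.0. Unc5d went from 478, 269 and 294 to 123, 129 and 176 in cortex, which did not pass the test (-1.25, adjusted p 0.058). In hippocampus it went from 891, 1232 and 982 to 90.6, 81.3 and 93.7. The genes whose cortex change lay most below that of hippocampus were Meg3 (-4.55), an imprinted noncoding RNA of neurons, Snhg11 (-4.30) and Trank1 (-4.28). The 3 were uneven among the P7 cortex libraries: Meg3 had 2051, 497 and 3459.6 there, with the low value in P7 replicate 2, which also had the lowest sum of general neuronal markers (4651 against 7799 and 9641), and the part of this in the result was not tested. The hippocampus libraries at P7 were uneven as well, with 478, 1379 and 3110 for Meg3, 156, 490 and 1137 for Snhg11 and 20.5, 29.4 and 134 for Trank1. In cortex none of the 3 passed the test of cortex P7 against P1. Against olfactory bulb the cortex change was highest for Grin2c (3.02, with 6.45, 6.60 and 7.72 and then 11.7, 12.9 and 7.71 in the bulb), Sv2b (3.001), a synaptic vesicle protein, and Dnajb9 (2.85), a chaperone of the endoplasmic reticulum. Sv2b did not pass the test in cortex (0.81, adjusted p 0.119), and in the bulb it went from 196, 299 and 259 to 49.8, 94.4 and 42.1. The cortex change was lowest for Snhg11 (-4.47), Hs6st2 (-4.25), a heparan sulfate sulfotransferase, and Sema3c (-4.15), a secreted semaphorin. Sema3c fell from 304, 231 and 361 to 75.6, 50.3 and 59.4 in cortex and went from 57.7, 51.1 and 38.1 to 347, 201 and 112 in olfactory bulb. In the cortex comparison alone the adjusted p of Sema3c was 0.056 without P1 replicate 3 and 0.054 without P7 replicate 2.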

How the data were processed

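Bulk RNA-seq of astrocytes from mouse cortex, hippocampus and olfactory bulb was analysed. The labels' protocols name the Trio RNA-seq kit for low amounts of RNA. The submitters' processing notes name STAR 2.5.0a, DESeq2 1.20.0, FastQC, MultiQC and mm10. The counting program, strand setting and annotation are not given in the sources used here, so overlapping antisense genes cannot be told apart. Each region has 1 table of deposited values, a signal equal to reads over a scaling factor: 100% of values were whole multiples of 1 read (tolerance 0.01), so reads were recovered. The 27 symbols turned into dates are not reported.

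Genes with a mean of at least 10 over the 10 cortex libraries were tested with limma 3.58.1 in R 4.3.3 (log2(value + 1), mean-variance trend, 3 ages in 1 fit). Region differences used recovered reads of 18 libraries, scaled together with TMM. Alternatives were pseudocounts of 0.1 and 8, other minimums, scalings, weights and sample sets, a 2-fold requirement, edgeR 4.0.16 and DESeq2 1.42.0 on recovered reads, and leaving out each library. Thinned reads and families taken by symbol were added after seeing the data. The code was tested on simulated data. Named genes were the 15 largest rises and falls (mean at or above the median, no overlap, no predicted genes), the 3 largest differences in each direction of each difference test, and list members; some are not reported here. Lists carry counts and medians beside those of all genes, with no set test. The comparison and gene lists were chosen with earlier results of these data known.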

Additional observations from a re-analysis of the deposited data

Results flagged for a closer look

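The change from P1 to P7 was tested for a difference between regions (limma, Benjamini-Hochberg adjustment), and each value here is the cortex change minus that of the other region on the log2 scale. Against hippocampus 1764 genes differed. The cortex change was lower for Meg3 (-4.55), Snhg11 (-4.30), Trank1 (-4.28), Nes (-1.89), Cox6a1 (-1.56), Rps15 (-1.18), Aldoc (-0.91) and Gabbr1 (-0.79), and higher for Fam163a (2.51), Unc5d (2.35) and Mex3b (2.34). Against olfactory bulb 2504 genes differed. The cortex change was lower for Snhg11 (-4.47), Hs6st2 (-4.25), Sema3c (-4.15), Nes (-2.68) and Rps15 (-0.93), and higher for Grin2c (3.02), Sv2b (3.001), Dnajb9 (2.85), Scd2 (1.53) and Gabbr1 (1.41). For Snhg11, Meg3 and Trank1 the lowest of the P7 cortex libraries was replicate 2, which also had the highest summed microglial markers and the lowest summed general neuronal markers of the P7 libraries, and the part of this in the result was not tested. The hippocampus libraries at P7 were uneven too, at 156, 490 and 1137 for Snhg11.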

How the results depend on the processing

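The 3985 genes called between P7 and P1 became 1556 with a 2-fold requirement, which removes small changes by construction. The other settings gave 3613 to 5125, except 2872 of the fewer genes with a mean of at least 100, and leaving out 1 library gave 2973 to 3606. Between P14 and P7 the count of 5893 became 3295 with the minimum of 100. Leaving out 1 cortex library gave 1219 to 1589 region differences against hippocampus and 1786 to 2393 against olfactory bulb. Of 143 named genes past the threshold, 111 stayed past it under every alternative and 132 when any 1 library was left out. The log2 difference of Mki67, which was not called, changed sign to 0.016 with thinned reads. The log2 difference of Trank1, also not called, ranged from -1.21 to 0.067 when 1 library was left out, with 0.067 without P7 replicate 2. For Mobp the difference between the weeks was not called with edgeR. No paired analysis was possible because the labels number no replicates and the numbers were given in accession order. The P7 libraries held fewer reads than those of P1, which limits genes near the minimum value. With 3 libraries per age, changes smaller than the spread between libraries could not be called.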
